A study of Mus musculus with 2 samples.

Results

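The 8 genes that encode the subunits of TRiC were followed in mouse embryonic stem cells (mESCs) of the line iXist-ChrX-Dom before Xist induction. TRiC, also called CCT, is the chaperonin of the cytosol. The genes were Tcp1, Cct2, Cct3, Cct4, Cct5, Cct6a, Cct7 and Cct8, chosen by name as the ubiquitous subunits of the complex, and all 8 were present among the 22556 genes of the deposited count table. The sequenced messenger RNA came from this female line, whose X chromosomes derive from Dom/129S and Cast parents. In this line a TetOn promoter stands in place of the natural Xist promoter on the Dom/129S allele, so that doxycycline would switch Xist on from that X chromosome. No doxycycline was given, and the samples are titled 0 h. Cells were kept in serum with LIF, and the inactivated fibroblast feeders were taken away by pre-plating. The series has 1 group of 2 replicates, and the labels do not say whether these were separate cultures, so every p-value below compares these 2 libraries by counting error and does not cover the spread between cultures. All results come from a single engineered line, and no line without the TetOn promoter and no induced sample was analysed here.

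TRiC is a barrel of stacked rings that closes over unfolded proteins and uses ATP to fold them. Every ring holds each of the subunits once, in a fixed order, and a complex cannot be completed when a subunit is short. Its best known clients are actin and tubulin, along with cell cycle proteins such as Cdc20 and other proteins with WD40 repeats. The co-chaperone prefoldin hands unfolded actin and tubulin to TRiC. Because the subunits are needed in equal amounts, the question put to these libraries was how equal their messenger RNAs are, and how well the 2 replicates hold the same proportions.

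The genes lie on 8 different autosomes, so no pair of them shares a neighbourhood. Promoter sequences (RefSeq, GRCm38.p6, 250 bases before to 50 after the start) were held for 7 of the 8, with a further start for Cct2 and for Cct5, which made 9 windows. Cct4 had no entry. The promoters of Cct6a (chr5:129787106-129787405, plus strand) and Cct7 (chr6:85451255-85451554, plus strand) are shown because they belong to the highest and the lowest subunit with an entry. Capitals mark every match to a searched motif on either strand.
Cct6a: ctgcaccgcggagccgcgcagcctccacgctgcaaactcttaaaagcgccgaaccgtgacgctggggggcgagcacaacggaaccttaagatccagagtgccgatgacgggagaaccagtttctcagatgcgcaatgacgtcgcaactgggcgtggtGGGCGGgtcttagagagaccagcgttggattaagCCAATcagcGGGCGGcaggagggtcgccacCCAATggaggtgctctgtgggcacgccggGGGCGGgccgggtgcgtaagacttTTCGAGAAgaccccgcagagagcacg
Cct7: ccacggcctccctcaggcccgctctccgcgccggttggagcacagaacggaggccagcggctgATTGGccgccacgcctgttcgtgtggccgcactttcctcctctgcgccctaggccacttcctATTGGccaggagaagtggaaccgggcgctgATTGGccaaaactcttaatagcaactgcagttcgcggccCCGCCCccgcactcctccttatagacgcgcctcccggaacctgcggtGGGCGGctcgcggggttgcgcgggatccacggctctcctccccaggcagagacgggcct
The motifs in capitals are the GC box, the CCAAT box and, in Cct6a, the heat shock element core. The Cct6a window held 3 GC boxes, 2 CCAAT boxes and 1 heat shock core that lay 25 bases downstream of the start. The Cct7 window held 3 CCAAT boxes and 2 GC boxes and no heat shock core.

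The same motifs were counted on both strands in all 32851 promoter windows of the table, where a match says only that the letters are present. A GC box (GGGCGG), which Sp1-type factors bind, was in a window of 7 of 7 subunits, or 8 of the 9 windows, and in 35.7% of all promoter windows. A CCAAT box (CCAAT), the site of NF-Y, was found for 4 of 7 (Cct3, Cct6a, Cct7 and Tcp1) in 4 of the 9 windows, against 37.4% of all windows. An ETS site (CCGGAAG) was found for 3 of 7 (Cct2, Cct8 and Tcp1) in 3 of the 9 windows, against 8.86%. A core of the heat shock element, bound by heat shock factors, was present in either arrangement for 3 of 7, in 3 of the 9 windows, and in 15.1% of all windows. The arrangement TTCNNGAA was found in Cct5 and Cct6a and in 8.52% of all windows, and GAANNTTC in Cct2 and in 7.86%. The NRF1 site (GCGCATGC) was found in Cct5 alone of the subunits and in 2.71% of all windows, and the YY1 site (AAGATGG) in Cct2 alone of the subunits and in 6.34%. Neither the TATA box (TATAAA, 13.6% of all) nor the E-box (CACGTG, 7.15%) was in any subunit window. The subunit windows had a median GC content of 60.3%, with a range from 47.3% to 67.7%, where the median of all promoters was 52.7%. A GC box has only G and C, and promoters of like GC content were not compared, so with 7 genes these counts are a description.

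Read depth was high for all subunits. The libraries held 23716499 and 20275749 counted fragments in replicates 1 and 2. The 8 subunits together took 147641 and 93054 of them. In replicate 1 this came to 0.623% of all counts, with a 95% interval by Wilson's method of 0.619% to 0.626%. In replicate 2 it came to 0.459%, with an interval of 0.456% to 0.462%, and both intervals cover counting error only. Markers of the labelled cells were present. All 8 ES cell markers reached at least 10 TPM (transcripts per 1000000 transcripts), from 63.8 for Pou5f1 to 846 for Zfp42. None of 8 fibroblast markers did, with Thy1 highest at 1.22 TPM and Lum without a count, and none of 6 neural precursor markers did, with Nes highest at 3.80 TPM and Sox1 without a count. The cell type label reads "mESC to NPC", while these libraries held ES cell markers, and no neural precursor marker listed had a mean above 3.80 TPM. Where a gene had no count, up to 3 counts remain possible at this depth. Of the 8 ES cell markers, 7 were called lower and 1 higher in replicate 2 with library totals (exact binomial test), and 5 lower and 3 higher with TMM or DESeq2 factors. The drops were largest for 2 of them. Pou5f1 was at 110 TPM in replicate 1 and 17.2 in replicate 2, and Dppa5a, another pluripotency marker, at 626 and 79.6. Esrrb was at 102 and 46.0 TPM, Klf2 at 135 and 85.4 and Tfcp2l1 at 111 and 86.5. Nanog was nearly level at 799 and 749 TPM, as were Klf4 at 230 and 221 and Zfp42 at 807 and 886.

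Levels were compared between genes as TPM, computed from the counts and the exonic length of each gene, so that longer transcripts do not count as more abundant. The subunit messenger RNAs were abundant, and they were not equal. Their summed level was 8083 TPM in replicate 1 and 6363 TPM in replicate 2, and their median over the mean of both replicates was 1006 TPM. For scale, 12252 genes had a mean of at least 1 TPM, with a median of 18.4 TPM. The highest subunit, Cct4, stood 9.05 times above the lowest, Cct7. Within replicate 1 that ratio was 7.89, and within replicate 2 it was 11.1. Equal messenger amounts would give each gene 12.5% of the summed subunit TPM. Cct4 took 25.4% in replicate 1 and 25.6% in replicate 2, whereas Cct7 took 3.22% and 2.31%.

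**Figure D1:**
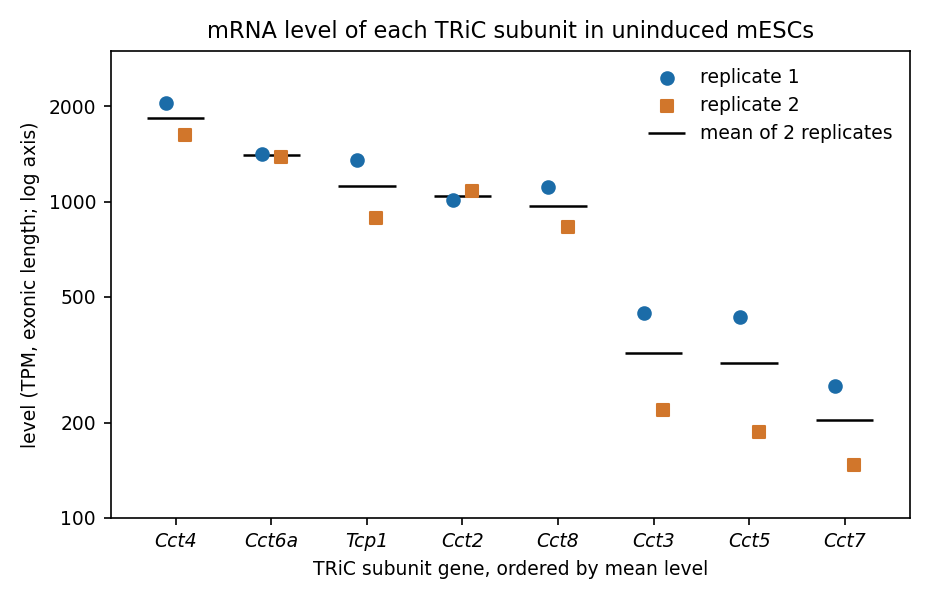
Level of each TRiC subunit gene in TPM (log axis, exonic length) in replicate 1 (circles) and replicate 2 (squares), with the mean as a line, ordered by mean level. 5 genes lie between 829 and 2055 TPM in both replicates, and Cct3, Cct5 and Cct7 lie between 147 and 445 TPM.

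Cct4 (chr11:22990593-23003336, plus strand), the delta subunit, had 2055 and 1628 TPM in replicates 1 and 2, a mean of 1842 ± 302 (SD, n = 2), and was the 46th most abundant gene of the table. Cct6a (chr5:129787356-129846443, plus strand), the zeta subunit, had 1416 and 1384 TPM, or 1400 ± 22.4, which was the smallest SD of the 8. Its 2 values lay below both values of Cct4. Tcp1 (chr17:12916329-12925067, plus strand), the alpha subunit and the gene after which the family was named, had 1358 and 891 TPM, or 1124 ± 330. Both lay below both values of Cct6a.

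Cct2 (chr10:117050997-117063852, minus strand), the beta subunit, had 1009 and 1078 TPM, or 1044 ± 48.8, and was higher in replicate 2. Cct8 (chr16:87483325-87495869, minus strand), the theta subunit, had 1109 and 829 TPM, or 969 ± 198. The values of Tcp1 and Cct2 overlapped, as did those of Cct2 and Cct8, so the order of these 3 was not resolved. They held ranks 3, 5 and 4 among the subunits in replicate 1 (Tcp1, Cct2, Cct8) and ranks 4, 3 and 5 in replicate 2.

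A gap of 2.92 times separated the mean of Cct8 from that of the next gene, and the replicate values on either side did not overlap. Below it was Cct3 (chr3:88297135-88321766, plus strand), the gamma subunit, with 445 and 220 TPM, or 332 ± 159. Cct5 (chr15:31590800-31601846, minus strand), the epsilon subunit, had 431 and 187 TPM, or 309 ± 173. Cct7 (chr6:85451505-85468477, plus strand), the eta subunit, had 260 and 147 TPM, or 204 ± 80.4, and ranked 1108th of all genes. The ranges of Cct3 and Cct5 overlapped, and so did those of Cct5 and Cct7. Each of these 3 genes was higher in replicate 1, yet even there none reached the lowest replicate value of the other 5. The other 5 subunits ranked between 46th and 121st of all genes. The rank within the complex was the same in both replicates for 5 of 8 subunits.

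The low and high genes were found on both functional sides of the ring. As background, Cct2, Cct4, Cct5 and Cct7 form the side that binds ATP strongly, and Tcp1, Cct3, Cct6a and Cct8 form the side that binds it weakly. The ATP-strong side contained the highest gene, Cct4, and the lowest, Cct7. The weak side ranged from Cct6a at 1400 TPM to Cct3 at 332 TPM.

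The order depended on the length by which counts were divided, and for Cct6a above all. The exonic lengths were alike, between 1853 and 2860 bases, a ratio of 1.54. The deposited length column gives the whole span with introns instead, and the Cct6a span of 59089 bases was 24.1 times its exonic length, against 3.06 times for Tcp1. On the span, Cct6a was at 303 TPM and Tcp1 was the highest subunit at 1906 TPM, and the ratio of highest to lowest was 12.6. With the longest transcript in place of all exons the ratio stayed at 9.05. The annotation adds a limit here, since GENCODE M21 lists Cct6a as a processed transcript without a coding model, whereas RefSeq lists it as protein coding. Cct3, Cct5 and Cct7 were the 3 lowest by exonic length, by longest transcript, by CPM (counts scaled to a library total of 1000000, without a length), and by span.

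**Figure D2:**
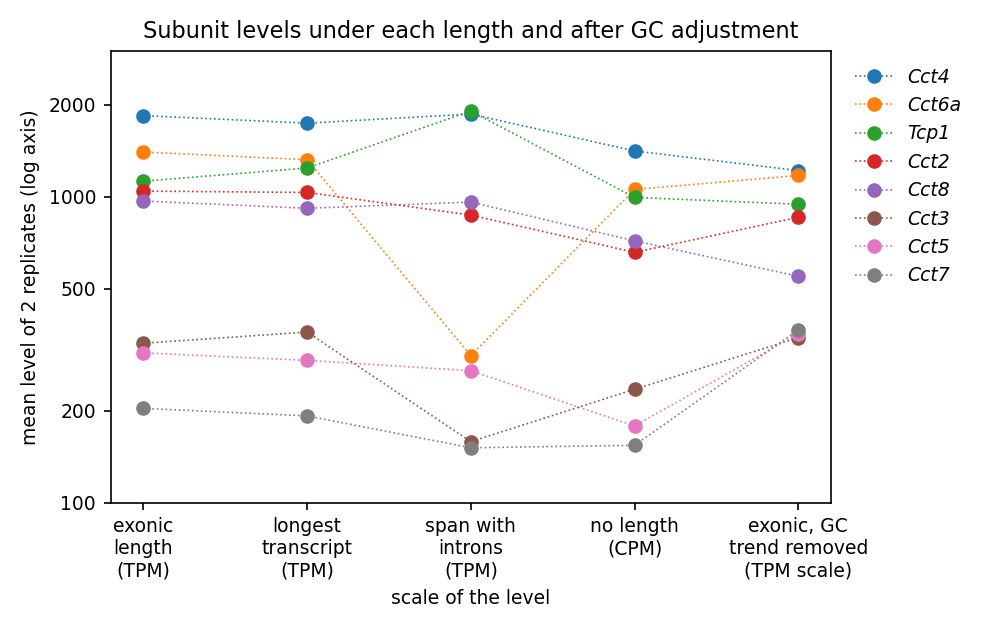
Mean level of each subunit over 2 replicates (log axis) by exonic length, longest transcript, whole span with introns, no length (CPM) and exonic length after the GC trend of levels was removed. Cct6a drops to 303 TPM on the span, and the spread from highest to lowest narrows to 3.51 after GC adjustment.

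Transcript GC content moved with these levels. Cct3, Cct5 and Cct7, a grouping made after their values were seen, had transcripts of 49.3% to 54.0% GC, and the other 5 had 43.3% to 47.4%, without overlap. Over the 8 subunits, level and GC content had a Spearman correlation of -0.67, given as a description over 8 genes of the same 2 libraries. Over autosomal genes with 50 or more counts per library it was -0.40. Removing the cubic GC trend of log2 level over the 9243 autosomal genes that had 50 or more counts per library, an alternative added after the data were seen, brought the ratio of highest to lowest subunit down to 3.51 and the SD of log2 level over the subunits from 1.18 to 0.78. On that scale Cct4 was at 1218 TPM, Cct6a at 1174, Tcp1 at 945, Cct2 at 857 and Cct8 at 550, and Cct7, Cct5 and Cct3 followed at 367, 357 and 347. The same 3 genes had the lowest means, but the gap narrowed. Within each replicate Cct8 stayed above all 3. It was at 691 TPM against at most 483 in replicate 1, and at 409 against at most 309 in replicate 2. Across replicates the values overlapped. Cct8, at 409 TPM in replicate 2, lay below the replicate 1 values of all 3 (455 for Cct3, 483 for Cct5 and 426 for Cct7), and which of the 3 was lowest differed, with Cct7 lowest in replicate 1 and Cct5 in replicate 2. What part GC content has in these differences was not tested.

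The second question was whether the proportions of the complex held between replicates. By share of the summed subunit TPM they did not hold for all subunits, and no test of shares was made. In replicates 1 and 2, Cct2 took 12.5% and 16.9%, Cct6a 17.5% and 21.8%, and Cct4 25.4% and 25.6%. Tcp1 took 16.8% and 14.0%, and Cct8 13.7% and 13.0%. Cct3 took 5.51% and 3.45%, Cct5 5.34% and 2.94%, and Cct7 3.22% and 2.31%. The test that follows sets each gene against the library totals, so it does not test these proportions. Of 14536 genes with at least 10 counts in total, 60.8% were called different between the libraries (two-sided exact binomial test against the ratio of totals, Benjamini-Hochberg adjusted), 45.7% lower in replicate 2 and 15.1% higher. Of the 8 subunits, 7 were called, and all 7 were lower in replicate 2. The median log2 ratio of replicate 2 over replicate 1, in CPM after 0.5 counts were added, was -0.60 for the subunits and -0.31 for all genes tested. This test compares 2 libraries of the same group and reads each fragment as independent, so at these depths small differences are called.

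The largest drop was that of Cct5, whose count was 6008 in replicate 1 and 2092 in replicate 2, a log2 ratio of -1.30 (95% interval -1.37 to -1.22). Cct3 had 7611 and 3021 counts, a log2 ratio of -1.11, and Cct7 had 4779 and 2165, a log2 ratio of -0.92. These 3 lowest of the subunits had the largest replicate differences on this scale, though for Cct7 not once GC content was taken into account. Tcp1 followed with 29195 and 15397 counts and a log2 ratio of -0.70, Cct8 with 19985 and 12020 counts and -0.51, and Cct4 with 38374 and 24448 counts and -0.42.

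Cct6a had 26116 and 20531 counts and a log2 ratio of -0.12 (adjusted p = 1.56e-18, exact binomial test), the weakest of the 7 calls. Cct2 had 15573 and 13380 counts, a log2 ratio of 0.01 with a 95% interval from -0.03 to 0.04, and was not called (adjusted p = 0.741, exact binomial test). The direction of Cct6a, and whether Cct2 was called, depended on how the libraries were scaled. Scaling by TMM factors raised all log2 ratios by 0.22. Cct6a was then at 0.10 and Cct2 at 0.23, both called higher in replicate 2, while the other 6 stayed called lower. With them 30.7% of all genes were lower and 27.0% higher, and the subunit median of -0.38 stood beside -0.08 for all genes.

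**Figure D3:**
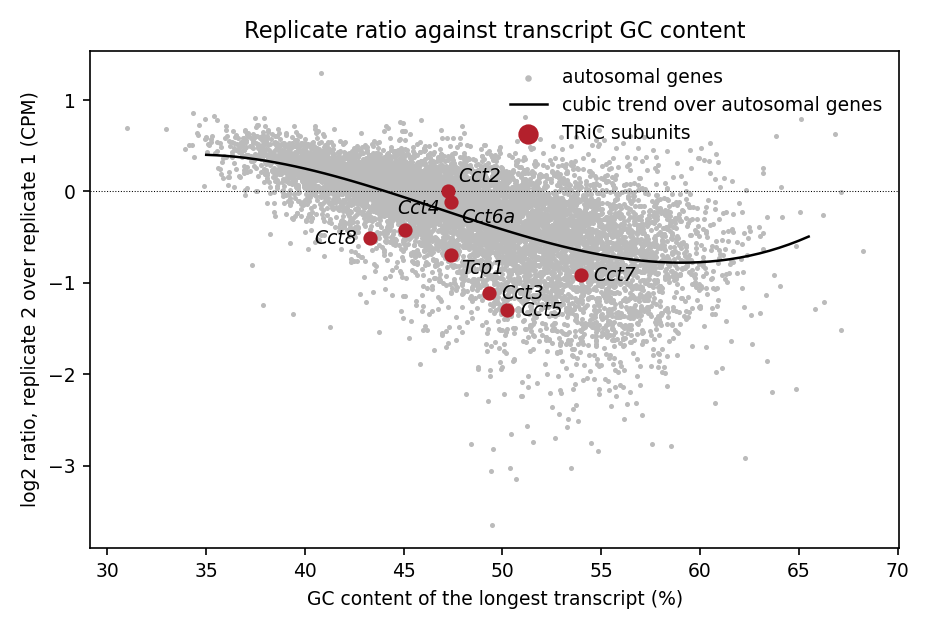
Log2 ratio of replicate 2 over replicate 1 (CPM) against the GC content of the longest transcript (%), with autosomal genes in grey, their cubic trend as a line and the 8 subunits in red. The trend falls over most of the GC range, and Cct3, Cct5 and Cct7 lie lowest of the subunits, between -1.30 and -0.92.

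Replicate ratio fell with GC content over the table. The Spearman correlation of ratio with GC was -0.66 over the 9243 autosomal genes and -0.64 over the 8 subunits, given as descriptions since all points share the same 2 libraries. Against the cubic GC trend, the subunit ratios had an SD of 0.38 in place of 0.46, and all genes had 0.42 in place of 0.53. Relative to that trend Cct5 was at -0.86, Cct3 at -0.74, Cct8 at -0.56, Tcp1 at -0.46, Cct4 at -0.36 and Cct7 at -0.27, whereas Cct6a was at 0.11 and Cct2 at 0.23. The drop of Cct7 was thus much nearer to that of other genes of its GC content, and those of Cct5 and Cct3 stayed the largest. The median of the 8 subunits relative to the trend was -0.41, where that of all genes was -0.01. In bulk RNA, a smaller share of cells with a transcript and less of it per cell cannot be told apart.

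The spread of single genes between replicates was estimated with edgeR. The common biological coefficient of variation, the replicate SD beyond counting error as a fraction of the mean, was 0.277 over 12648 genes. The subunits had gene-wise values between 0.202 and 0.217, with a median of 0.214, against a median of 0.285 over all genes. These values come from 2 libraries and are drawn toward the trend of genes of like abundance, so they do not rank the subunits.

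Genes that work with TRiC were less abundant for the most part. All 6 prefoldin subunits were in the table, Pfdn6 under its older symbol H2-Ke2. They spread over 1604 times, from 2.17 ± 0.934 TPM for Pfdn6, with 21 and 9 counts, to 3476 ± 815 TPM for Vbp1, an X-linked gene with a transcript of 35.5% GC. Without GC adjustment the spread of prefoldin was thus wider than that of TRiC, as the plot of levels by list shows. With 6 genes this is a description. The transcript of Pfdn6 had 53.9% GC, and the part of GC content or of shared sequence in the prefoldin spread was not tested. Pfdn5 was the next lowest at 16.7 ± 10.7 TPM. In the replicate test 4 of the 6 were lower in replicate 2, Vbp1 was higher and Pfdn6 was not called, with a median log2 ratio of -0.62. With DESeq2 size factors 3 of the 6 were lower and 1 higher, and against the GC trend 3 were lower and none higher, with Vbp1 at 0.00 and not called. For this and the next lists, directions are those with library totals, where 45.7% of all genes tested were lower and 15.1% higher, and counts under the other scalings, added after the data were seen, stand beside them. Over all genes tested, 26.1% were lower and 31.6% higher with DESeq2 size factors, and 21.6% were lower and 23.0% higher against the GC trend. Of the phosducin-like and thioredoxin-like cofactors that bind TRiC, Pdcl had 107 ± 28.8 TPM and was higher in replicate 2, Txndc9 96.1 ± 5.83, Pdcl3 23.5 ± 0.298, and the germ cell gene Pdcl2 had no count. Of the 3 cofactors tested, none was lower and 1 higher with totals, 2 were higher with TMM factors and 3 with DESeq2 factors, and against the GC trend 1 was higher and 1, Txndc9, lower (-0.21).

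**Figure D4:**
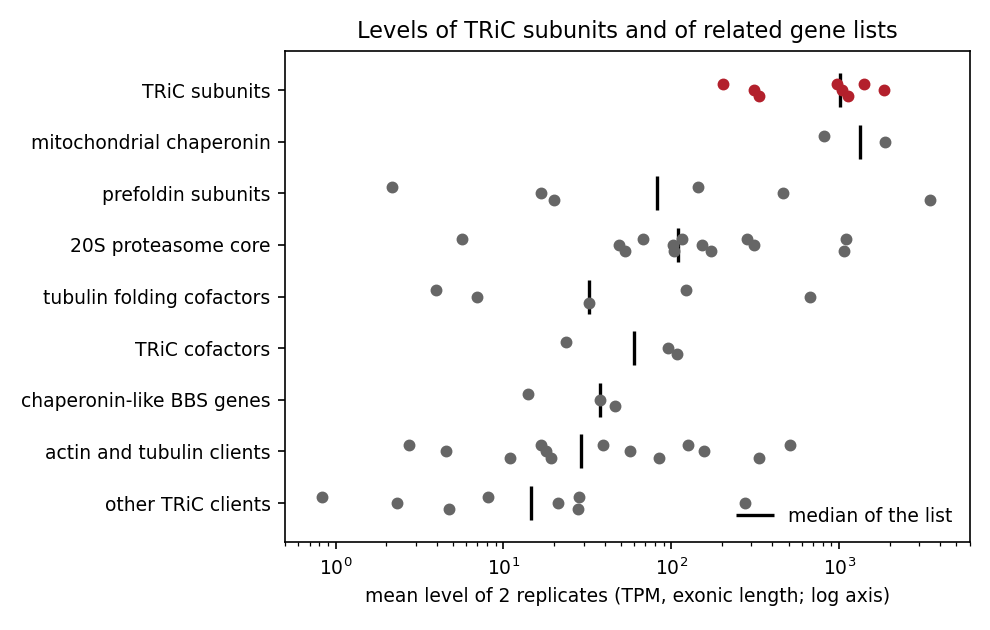
Mean level of 2 replicates (TPM, log axis) of each gene in 9 lists, with the list median as a black bar and genes without a count entering the median but not drawn. TRiC subunits, in red, have a median of 1006 TPM, and only the mitochondrial chaperonin has a higher one.

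The tubulin folding cofactors, which assemble the tubulin dimer after TRiC releases its subunits, ranged from Tbcc at 3.94 ± 3.16 TPM to Tbca at 674 ± 133 TPM. With library totals all 5 were lower in replicate 2, with a median log2 ratio of -0.54. Tbce, at -0.32, was no longer called with TMM factors (-0.10) or DESeq2 size factors (-0.01), which left 4, and 3 were lower against the GC trend. The actin and tubulin genes themselves had a median of 29.1 TPM, below every TRiC subunit. These levels were not adjusted for GC content, which was 43.3% to 54.0% in the TRiC transcripts. What part it has in this difference was not tested. Tubb5, the main beta-tubulin of dividing cells, was the highest at 508 ± 194 TPM, Actb was at 334 ± 70.0 TPM, and Tubb4a, a neuronal tubulin, had no count. Of 13 tested, 12 were lower in replicate 2, with a median log2 ratio of -0.94 and transcripts of 51.1% to 57.9% GC. With TMM or DESeq2 factors 12 were lower and 1 higher, and against the GC trend 7 were lower and 2 higher. Of 8 other clients, 6 were lower and none higher with library totals, 5 lower with TMM or DESeq2 factors and 4 against the GC trend, with 1, Gnb1, higher under each of these 3 scalings. Their median log2 ratio with totals was -1.16, and the G protein subunit Gnb1 was the highest at 276 ± 7.11 TPM and Gnb2 the lowest at 0.834 ± 0.421. Reads from stretches that the tubulin genes share may have been split or lost, so their levels are uncertain.

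Related chaperonins were measured beside TRiC. The mitochondrial chaperonin, which has its own barrel and lid, was at 808 ± 74.2 TPM for Hspd1 and 1867 ± 129 TPM for the lid gene Hspe1. Hspe1 was higher in replicate 2. Hspd1 was lower with library totals (-0.28) and with TMM factors (-0.05), but at 0.04 and not called with DESeq2 size factors. The paralog Cct6b, known for its use in testis in place of Cct6a, was at 21.2 ± 1.64 TPM, and Cct8l1, also of testis, had 4 counts in replicate 1 and 1 in replicate 2. The chaperonin-like genes of Bardet-Biedl syndrome were at 46.0 ± 0.847 TPM for Mkks, 37.7 ± 5.14 for Bbs12 and 13.9 ± 3.68 for Bbs10, of which Bbs10 was lower in replicate 2 and Bbs12 higher, the latter not called against the GC trend. Mkks was not called with totals and was called higher, at 0.19, with DESeq2 size factors.

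The core of the 20S proteasome offers another barrel built of subunits in fixed numbers. Its 14 genes had a median of 110 TPM, with Psma6 entered at 0. Psma4 was the highest at 1091 ± 347 TPM, and Psmb5 the lowest of the genes with counts at 5.65 ± 4.35 TPM. Psma6 was listed at 0 counts, and its whole span lies within that of Mir1198 on the same strand, so its level was not measured. Of 13 genes tested, 11 were lower in replicate 2 and none higher with library totals, 9 lower and 2 higher with TMM factors, 9 lower and 3 higher with DESeq2 factors, and 11 lower and 1 higher against the GC trend. Their median log2 ratio with totals was -1.12. Measured levels were thus unequal within the proteasome core and prefoldin as well as within TRiC. For the proteasome core and prefoldin these levels were not adjusted for GC content, and shared sequence was not examined.

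No subunit shares its span with another gene of the table on the same strand, and 3 subunits overlap a gene on the opposite strand, namely Tcp1 with Acat3, Cct7 with Pradc1 and Cct8 with Usp16. In GENCODE M21, Cct6a also overlaps Psph on the opposite strand. Of all 50-base words in the longest transcript, 21.9% of Tcp1 occur in Acat3, 16.8% of Cct6a in Psph, 6.94% of Cct7 in Pradc1 and 6.10% of Cct8 in Usp16, always as the reverse complement, and counting used strand. The Tcp1 words include 12.1% that also occur, again as the reverse complement, in Acat2, which does not overlap Tcp1. What part these shared words have in the level of Tcp1 was not tested. Processed pseudogenes can draw reads from their parents. For Cct3, 2.13% of the words also occur in an annotated pseudogene, and the shares were 1.34% for Cct7, 0.657% for Cct4, 0.25% for Tcp1 and 0 for the other 4.

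The neighbours at the 5' ends were looked at after the positions had been seen. For 6 of the 8 subunits, or 75%, a gene on the opposite strand starts within 1000 bases in head-to-head arrangement. That arrangement was found for 11.8% of all genes of the table and for 17.1% of genes with at least 1 TPM. Only Cct2 and Cct4 had no such partner. Tcp1 starts 237 bases from Mrpl18, a gene of the mitochondrial ribosome, which was at 545 ± 38.5 TPM, and this pair was the closest in level at 2.06 times. Cct3 starts 296 bases from Tsacc, a chaperone cofactor gene of testis, at 38.5 ± 17.5 TPM. Cct6a starts 102 bases from Psph, an enzyme of serine synthesis, at 26.3 ± 5.41 TPM. Cct5 starts 311 bases from Fam173b, a methyltransferase gene, at 4.68 ± 0.806 TPM, and Cct8 starts 203 bases from B130034C11Rik at 2.26 ± 0.025 TPM. The 5' ends of Cct7 and Pradc1 overlap, and Pradc1 was at 10.6 ± 5.12 TPM. In each of the 6 pairs the subunit was the more abundant transcript.

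The partners did not share one replicate ratio with the subunits. Tsacc had a log2 ratio of -1.05 beside -1.11 for Cct3, and Pradc1 had -1.10 beside -0.92 for Cct7, both called lower in replicate 2 with library totals, the scaling used for all partners. Mrpl18 was at 0.06 and not called, beside -0.70 for Tcp1, and Fam173b, with 73 and 75 counts, was at 0.26 and not called, beside -1.30 for Cct5. Psph was called lower, at -0.51 beside -0.12 for Cct6a. The ratio of B130034C11Rik was -0.10, on 24 and 19 counts, beside -0.51 for Cct8.

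The genes nearest to the complex were sought among 9685 genes with 50 or more counts per library, by distance to the subunit median in log2 level and log2 replicate ratio. This likeness rests on 2 samples. The nearest was 4930500J02Rik (distance 0.157), followed by the proteasome gene Psma4 (0.170), the nucleolar gene Rsl1d1 (0.221), the purine synthesis gene Paics (0.254) and Hspa9, the Hsp70 of mitochondria (0.260). Their mean levels lay between 848 TPM for Hspa9 and 1209 TPM for Paics.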

How the data were processed

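Raw counts of fragments per gene were deposited by the authors as a single table, made with featureCounts 1.5.2 per the file headers (paired, reverse-stranded, whole transcript spans). The labels list Bowtie2 2.3.2, STAR 2.4.2a and mm10. Count columns were matched to the sample descriptions, which carry a letter b that the columns lack. Exonic lengths came from GENCODE M21 (basic set) and matched 22144 of 22556 genes (98.2%), 886 of them through an older symbol, as was the list gene Pfdn6 (H2-Ke2). TPM was computed per library and averaged over 2 replicates. The deposited length column gives spans and was used as an alternative only. Coordinates are those of RefSeq (GRCm38.p6, the build of mm10), and the table starts 1 base lower for 6 of 8 subunits. Genes with at least 10 counts in total entered the two-sided exact binomial test (scipy 1.17.1), adjusted by Benjamini-Hochberg at 0.05. Dispersion came from edgeR 4.0.16 with TMM and an intercept only, and DESeq2 1.42.0 gave size factors. The test was checked on counts simulated without spread between replicates, so that check does not cover such spread. The dispersion was checked on counts simulated with a known spread.

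The subunits and all gene lists were chosen with earlier results of these data known. Named genes are the subunits, the highest and lowest of each list and the 5 nearest genes. Actb, Pfdn5, Tbce, Psmb5, Nanog, Klf4, Esrrb, Klf2, Tfcp2l1, Txndc9, Pdcl3, Bbs12, Psma6, Dppa5a and the head-to-head partners were named after their values were seen. Protein sequences were not used here.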

Additional observations from a re-analysis of the deposited data

How the results depend on the processing

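No paired analysis was possible because both replicates belong to the only group. Of 118 values recomputed for 22 results, those below moved or reversed where a result covers all subunits. The ratio of highest to lowest subunit was 12.6 by span and 3.51 with the GC trend of levels removed, an alternative chosen after seeing the data, and the SD of log2 level was 1.505 and 0.784. The median level was 587 TPM by span, 688 CPM without a length, 704 TPM with the GC trend removed, and 860 to 1059 TPM when either replicate was left out. The median log2 ratio of replicate 2 over replicate 1 was -0.38 with TMM factors, -0.29 with DESeq2 size factors and -0.41 against the GC trend. Under the same settings Cct6a turned to 0.10, 0.19 and 0.11, and Cct2 became a call. The coefficient of variation was 0.317 with library totals only and 0.294 without a filter. Other filters and no pseudocount left 7 subunits called, all lower. Among single subunits, 14 further levels moved. All 7 Cct6a transcripts of the full GENCODE M21 are processed transcripts (4) or retained introns (3), so its longest transcript was used. Depth did not limit the subunits, but 2 libraries leave each SD uncertain.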
